A study of Mus musculus with 6 samples.

Results

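The 10 genes described here encode transcription factors of heart development, namely Gata4, Gata6, Hand2, Mef2a, Mef2c, Mef2d, Tbx5, Tbx20, Nkx2-5 and Isl1. They were chosen by name, and all 10 symbols were found among the 54532 genes of the deposited count table. RNA sequencing compared 3 control libraries with 3 induced libraries of iECDCs, mouse cells that grow out of cardiospheres from the peeled ventricular epicardium. All 6 libraries were made from the same C57BL/6 line at passage 30, which carries a lentiviral human telomerase (hTERT) gene under a CMV promoter, so that all values rest on 1 line. Control cells had no inducing drug, and induced cells had 10 µM of 5-azacytidine, an inhibitor of DNA methylation, during 3 days before a culture in IMDM with 2% FBS that lasted 4 weeks per the labels. The methods name another medium and a shorter culture after the drug. They grow the line routinely in a medium with more serum and give no culture time for the sequenced control cells. Effects of drug, serum and culture time cannot be told apart. The comparison asked which genes of these cells changed after induction towards heart muscle.

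Heart muscle genes are switched on by a small set of DNA-binding proteins that act on the same enhancers. GATA4 and GATA6 are zinc finger proteins, TBX5 and TBX20 bind DNA by a T-box, HAND2 is a basic helix-loop-helix protein, and the MEF2 proteins belong to the MADS box family and turn on contractile genes once class IIa histone deacetylases release them. NKX2-5 and ISL1 are homeodomain proteins that mark cardiac progenitors, ISL1 above all those of the second heart field. Several of these factors are also made outside heart muscle, in the epicardium, in fibroblasts and, for MEF2, in nearly every cell type.

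The drug used for induction acts on cytosines of CpG dinucleotides, so the promoters of the members were read for that letter pair. RefSeq windows (GRCm38.p6) existed for 7 of the 10 genes, with 3 starts for Mef2c, and windows for Gata4, Gata6 and Tbx5 were not used here. The 250 bases before the start site are shown for a pair of genes that rose, one that fell and the pair that was not expressed, read 5′ to 3′ on the strand of the gene, with each CG in capitals.
Mef2a, chr7:67372859-67373108, minus strand: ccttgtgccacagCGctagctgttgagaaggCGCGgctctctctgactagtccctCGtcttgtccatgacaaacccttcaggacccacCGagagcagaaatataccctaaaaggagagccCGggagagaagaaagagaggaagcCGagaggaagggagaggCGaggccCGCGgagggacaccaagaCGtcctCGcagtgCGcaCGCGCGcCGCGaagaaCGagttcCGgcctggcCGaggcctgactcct
Tbx20, chr9:24774304-24774553, minus strand: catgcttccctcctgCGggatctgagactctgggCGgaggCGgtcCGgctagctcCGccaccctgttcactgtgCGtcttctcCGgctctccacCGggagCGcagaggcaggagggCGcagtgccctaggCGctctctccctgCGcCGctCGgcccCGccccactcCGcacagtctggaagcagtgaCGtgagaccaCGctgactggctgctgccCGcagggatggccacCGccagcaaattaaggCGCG
Hand2, chr8:57320733-57320982, plus strand: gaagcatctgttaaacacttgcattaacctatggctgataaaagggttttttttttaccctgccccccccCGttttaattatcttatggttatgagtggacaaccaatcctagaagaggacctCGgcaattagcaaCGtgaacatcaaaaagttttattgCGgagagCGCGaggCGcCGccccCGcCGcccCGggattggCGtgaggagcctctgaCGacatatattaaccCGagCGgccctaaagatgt
Isl1, chr13:116309689-116309938, minus strand: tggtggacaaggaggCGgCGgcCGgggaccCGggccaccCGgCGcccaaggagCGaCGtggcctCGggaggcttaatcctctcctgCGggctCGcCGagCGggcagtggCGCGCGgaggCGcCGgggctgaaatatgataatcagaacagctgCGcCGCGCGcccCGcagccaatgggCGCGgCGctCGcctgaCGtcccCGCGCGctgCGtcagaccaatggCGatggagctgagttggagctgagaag
Nkx2-5, chr17:26841566-26841815, minus strand: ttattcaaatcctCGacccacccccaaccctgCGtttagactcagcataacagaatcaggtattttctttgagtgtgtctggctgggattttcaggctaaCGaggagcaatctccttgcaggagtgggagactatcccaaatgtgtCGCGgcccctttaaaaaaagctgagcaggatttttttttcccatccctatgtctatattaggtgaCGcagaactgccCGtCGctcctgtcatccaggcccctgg
The window of Mef2a held 21 CG, that of Tbx20 held 22, and that of Mef2d, not printed, held 19. Hand2 had 15. Over all 32851 windows of this length the median was 6 CG, with an interquartile range of 2 to 16, and 16.3% of windows held at least as many as Mef2a. The 3 starts of Mef2c had 1, 6 and 4 CG, at or below the median. Of the genes without expression, Isl1 had 33 CG, a number reached by 4.03% of windows, and Nkx2-5 had 8, reached by 43.0%. Methylation was not measured in these cells.

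Total counts were 19041133 to 19823369 reads per library, and the limit that 0 reads leave in 1 library, taken as 3 reads and covering counting error only, was between 0.151 and 0.158 in CPM, the unit that scales counts by library size. Levels are TMM-scaled CPM as mean ± SD over 3 libraries, and adjusted p-values come from the quasi-likelihood test of edgeR, adjusted by Benjamini-Hochberg over 14246 genes. Gene coordinates are on mm10 as deposited. Since the labels say no more than separate samples, p-values measure the spread between these samples. Of all genes tested, 64.8% were past an adjusted p of 0.05 (32.6% higher and 32.2% lower in induced cells), and for 68.6% the libraries of the groups did not overlap. The median absolute log2 fold change of all genes was 0.36. In bulk RNA, a change in the number of cells that make a factor and a change in RNA per cell cannot be told apart.

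Of the 10 cardiac factors, 8 passed the filter on low counts and 7 of these were past the threshold, against 64.8% of all genes. Gata4, Gata6, Mef2a, Mef2d and Tbx20 were higher in induced cells, Hand2 and Tbx5 were lower, and Mef2c did not pass the test. Of the 8 tested factors, 7 had groups that did not overlap, against 68.6% of all genes tested, and the groups of Mef2c overlapped. These are the same 7 that were past the threshold. The changes were between 1.16-fold and 1.76-fold in size, and none reached 2-fold. Their median log2 fold change over the 8 tested genes was 0.29, against -0.01 over all genes tested.

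**Figure D1:**
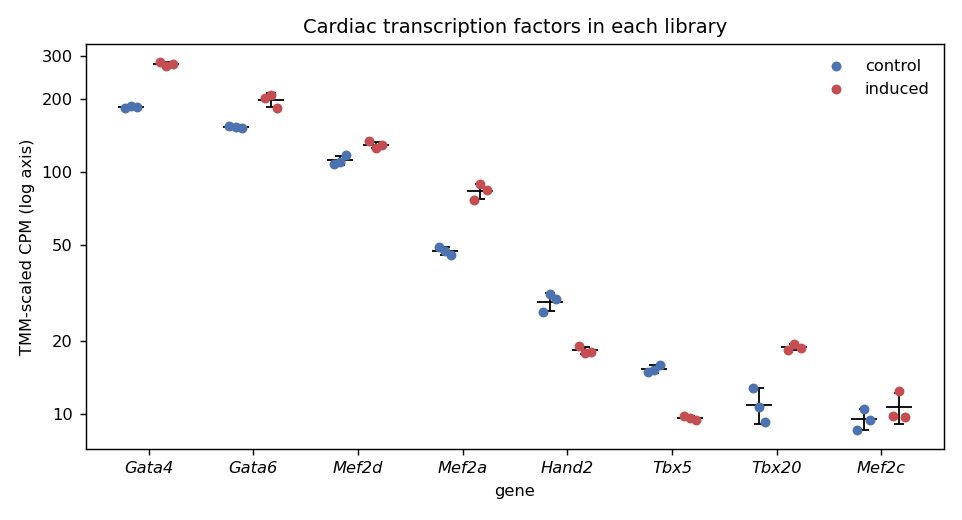
TMM-scaled CPM (log axis) of the 8 tested cardiac factors in each control (blue) and induced (red) library, with horizontal lines at the group mean and bars of 1 SD (n = 3). The groups of points are apart for every gene but Mef2c, and Hand2 and Tbx5 are the genes whose induced libraries lie below the control libraries.

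The GATA factors were the most abundant members. Gata4 (ENSMUSG00000021944, chr14:63198922-63271692, minus strand), which is needed for the proepicardium and for heart muscle genes, had 183.5, 187.4 and 184.1 CPM in control libraries and 282.3, 273.9 and 278.8 CPM in induced libraries. The lowest induced library was far above the highest control library. The level rose from 185 ± 2.09 to 278 ± 4.23 CPM, a log2 fold change of 0.59 (SE 0.04, 95% interval 0.50 to 0.68, adjusted p = 1.49e-09). Its absolute change was larger than that of 67.3% of the genes tested. Gata6 (ENSMUSG00000005836, chr18:11052508-11085635, plus strand), which overlaps in function with Gata4 and is also made in vascular and endodermal cells, had 153.7, 153.3 and 151 CPM in control libraries and 202.2, 207.9 and 182.9 CPM in induced libraries. The control libraries lay close together, and all 3 induced libraries were higher. The log2 fold change of Gata6 was 0.37 (SE 0.05, adjusted p = 6.1e-06).

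Gata4 was also more abundant per length than Gata6. In FPKM (fragments scaled to gene length and library total), Gata4 went from 46.9 ± 0.45 to 71.2 ± 1.19 and Gata6 from 27.1 ± 0.22 to 35.3 ± 2.31. The ratio of Gata4 to Gata6 was 1.73 in control and 2.02 in induced cells. On the log2 scale the ratio went from 0.79 ± 0.02 to 1.01 ± 0.11, a difference of 0.22, and every induced library had the higher ratio. An exact permutation test gave p = 0.1, the smallest value that 3 libraries against 3 can give, so this test could not pass 0.05.

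The MEF2 genes differed among themselves. Mef2a (ENSMUSG00000030557, chr7:67231163-67372858, minus strand), the main MEF2 gene of adult heart muscle, had 48.8, 47.1 and 45.3 CPM in control libraries and 76.6, 88.9 and 83.9 CPM in induced libraries. No induced library came near the control values. Mef2a rose by 0.82 on the log2 scale (SE 0.06, 95% interval 0.69 to 0.95, adjusted p = 1.11e-09), from 47.1 ± 1.73 to 83.1 ± 6.19 CPM, the largest change of the 8 tested members in this fit. Mef2d (ENSMUSG00000001419, chr3:88142372-88172086, plus strand), a widely expressed family member, had 108, 109.3 and 116.7 CPM in control and 133.4, 125.2 and 128.4 CPM in induced libraries. The gap between the groups was narrow, and the log2 fold change was 0.21 (SE 0.05, adjusted p = 0.00159). Mef2c (ENSMUSG00000005583, chr13:83504034-83667080, plus strand), which drives the early heart tube and the second heart field, had 8.61, 10.5 and 9.42 CPM in control and 9.78, 12.5 and 9.75 CPM in induced libraries. These groups overlapped, and the interval of the log2 fold change ran from -0.10 to 0.43 (estimate 0.17, adjusted p = 0.255).

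Per length, Mef2d remained the main MEF2 gene, as it was in CPM. The length used was every annotated exon base, 5985 for Mef2d, 14681 for Mef2a and 15715 for Mef2c. A single transcript can be shorter, so the shares of Mef2a and Mef2c may be too low. The summed FPKM of the 4 family members was 22.4 ± 0.62 in control and 28.4 ± 0.28 in induced cells. The share of Mef2a in this sum was 14.9%, 14.5% and 13.3% in control libraries and 18.2%, 21.3% and 20.3% in induced libraries. Mef2a thus took a larger share in every induced library, with a mean of 14.2% against 19.9%. The share of Mef2d went from 82.4% ± 1.36 to 75.8% ± 2.2, and its groups did not overlap either. The exact permutation test gave p = 0.1 for both shares, the smallest possible p. Mef2c held 2.68% and 2.39% (exact permutation test, p = 0.3). Mef2b, the family member of lymphoid cells, was counted too rarely for the fit, with 13 reads in all control and 42 in all induced libraries.

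**Figure D2:**
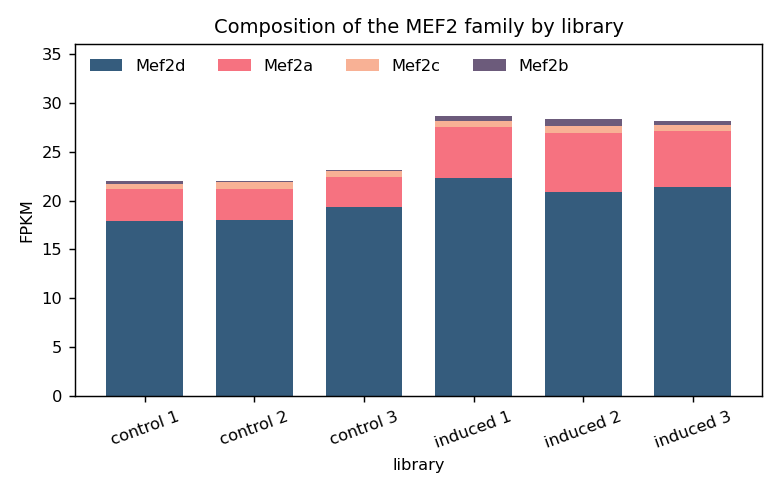
FPKM of the 4 MEF2 genes stacked by library. The summed bars reach 22.0 to 23.1 FPKM in control and 28.1 to 28.6 FPKM in induced libraries, and the Mef2a segment takes 13.3% to 14.9% of the former and 18.2% to 21.3% of the latter.

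The T-box members changed in opposite directions. Tbx20 (ENSMUSG00000031965, chr9:24718138-24774303, minus strand), a repressor and activator needed for chamber growth and for adult heart muscle, had 12.9, 10.7 and 9.27 CPM in control and 18.4, 19.5 and 18.8 CPM in induced libraries. The control libraries were the more spread, yet all of them were below the induced ones. Tbx20 rose by 0.79 on the log2 scale (SE 0.11, 95% interval 0.56 to 1.02, adjusted p = 3.58e-06), from 254, 210 and 185 reads to 347, 371 and 359. Tbx5 (ENSMUSG00000018263, chr5:119832668-119885219, plus strand), the first heart field and conduction system factor, had 14.9, 15.1 and 16 CPM in control and 9.83, 9.63 and 9.43 CPM in induced libraries. Both groups were tight and far apart. Tbx5 fell by 0.67 on the log2 scale (SE 0.10, adjusted p = 5.94e-06), which is 1.59-fold lower in induced cells.

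Hand2 (ENSMUSG00000038193, chr8:57320983-57324633, plus strand), a factor of the right ventricle, the second heart field and the epicardium, had 26.4, 31.3 and 29.7 CPM in control and 19.1, 17.8 and 18 CPM in induced libraries. All induced libraries were below the lowest control library. The level fell from 29.1 ± 2.52 to 18.3 ± 0.68 CPM, a log2 fold change of -0.67 (SE 0.08, 95% interval -0.84 to -0.50, adjusted p = 9.11e-07). The values of Hand2 are uncertain in one respect, since 19.6% of its exon bases also belong to the antisense gene Hand2os1 and the strand setting of the counting is not stated. Overlaps with exons of other genes were 8.87% for Mef2d, 2.06% for Mef2a, 1.43% for Gata6 and 0 for the other members. All these overlaps were read from the gene models of GENCODE M21, whose coordinates differ from the deposited ones for Gata6 and Nkx2-5.

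Nkx2-5 and Isl1 were not detected beyond the limit of the depth. Nkx2-5 (ENSMUSG00000015579, chr17:26838664-26841565, minus strand), the homeobox gene of early and adult heart muscle, had 2 reads in control library 2 and 0 in the other 5. Isl1 (ENSMUSG00000042258, chr13:116298281-116309689, minus strand) had 0 reads in all 6. No fold is given for either.

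In order of level per length, control cells had Gata4 first, then Gata6, Mef2d at 18.4 FPKM, Hand2 at 12.3, Tbx5 at 3.25, Mef2a at 3.18, Tbx20 at 0.904 and Mef2c at 0.599. Neighbours in this order were apart in every library except Tbx5 and Mef2a, whose control libraries overlapped. In induced cells Mef2a stood at 5.65 FPKM and Tbx5 at 2.06, so that these genes were apart, and Hand2 at 7.77 was close above Mef2a without overlap. Gata4 was at the 92.3 percentile of all tested genes in control cells and at 94.9 in induced cells, whereas Mef2c was at 14.6 and 15.4. This order and these percentiles rest on the length of all annotated exon bases, 11997 for Tbx20 and 4675 for Tbx5. Genes with many such bases stand lower by it. In CPM, Mef2a was above Tbx5 in control cells too (47.1 against 15.4).

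**Figure D3:**
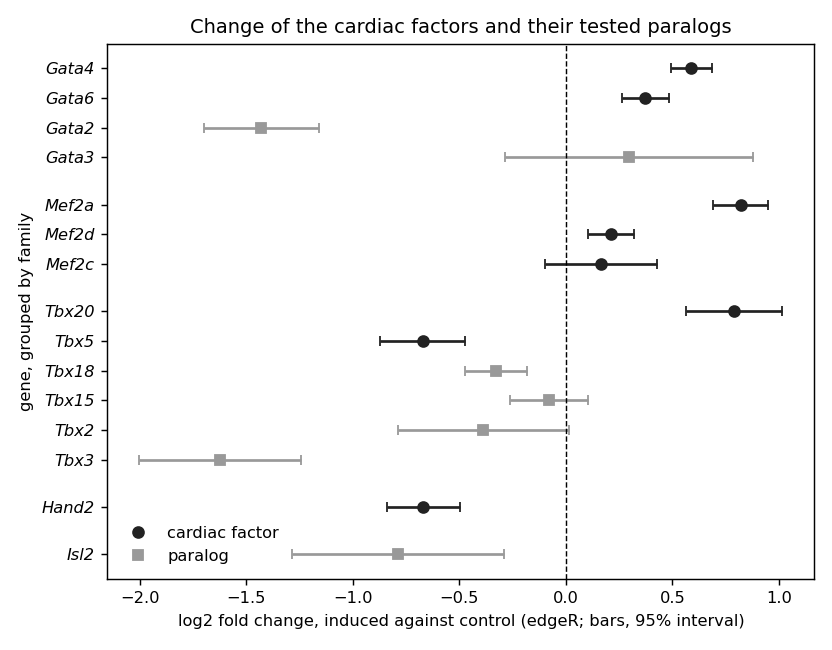
Log2 fold change (induced against control, edgeR) of the tested cardiac factors (black circles) and of their tested paralogs (grey squares), grouped by family, with bars of the 95% interval. Mef2a at 0.82 and Tbx20 at 0.79 lie furthest to the right, while the paralogs Gata2 at -1.43 and Tbx3 at -1.62 lie furthest to the left.

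No tested paralog of the members was higher past the threshold. Of 15 listed paralogs 7 were tested, 0 were higher and 4 were lower (57.1% called, against 64.8% of all genes), and their median log2 fold change was -0.39. Gata2, the blood and endothelial GATA factor, had 15.5, 12.9 and 14 CPM in control and 6.16, 4.89 and 4.72 CPM in induced libraries, with no overlap. Its log2 fold change was -1.43 (SE 0.13, adjusted p = 1.48e-08), opposite in sign to that of Gata4 and Gata6. Tbx3, a repressor of the conduction system, had 5.07, 5.86 and 5.66 CPM in control and 1.81, 1.68 and 1.89 CPM in induced libraries, a log2 fold change of -1.62 (SE 0.18, adjusted p = 2.85e-07). Tbx18, an epicardial T-box factor, and Isl2, a motor neuron gene related to Isl1, were lower by the same test, with log2 fold changes of -0.33 and -0.79. Gata3, Tbx2 and Tbx15 did not pass the threshold (adjusted p = 0.364, 0.0843 and 0.44). Hand1, the sister gene of Hand2, Gata1, Tbx4 and Nkx2-6 had 0 reads in all libraries.

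Genes that lie near Hand2 and Tbx5 fell too, where 32.2% of all genes tested were lower past the threshold. Hand2os1 (named AV026068 in the table, chr8:57281117-57324233, minus strand), a noncoding RNA known to tune Hand2, had 5.12, 7.7 and 4.96 CPM in control and 3.72, 4 and 3.09 CPM in induced libraries. All induced values were lower, and the log2 fold change was -0.72 (SE 0.19, adjusted p = 0.00295), to be read with the shared exon bases given above. In the table its minus-strand model begins inside Hand2, whereas the RefSeq start lies 124 bases upstream of the Hand2 start. Handsdown (5033428I22Rik in the table, chr8:57332118-57354580, plus strand), another noncoding RNA of the locus, begins 7485 bases beyond Hand2 and shares no exon with it. It had 5.37, 5.05 and 4.61 CPM in control and 2.6, 1.95 and 1.78 CPM in induced libraries, a log2 fold change of -1.24 (SE 0.19, adjusted p = 1.52e-05). Gm34030, which lies on the other strand at the start of Handsdown and may share its reads, went from 1.65 ± 0.31 to 0.684 ± 0.36 CPM (adjusted p = 0.00428). Gm34030 had 9, 9 and 21 reads in induced libraries and passed the filter on low counts only through its control libraries. Beside Tbx5, the unnamed noncoding gene Gm43050 begins at a distance of 748 bases on the opposite strand. It had 2.79, 2.85 and 4.36 CPM in control and 1.59, 1.89 and 1.26 CPM in induced libraries, a log2 fold change of -1.07 (SE 0.25, adjusted p = 0.000977).

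**Figure D4:**
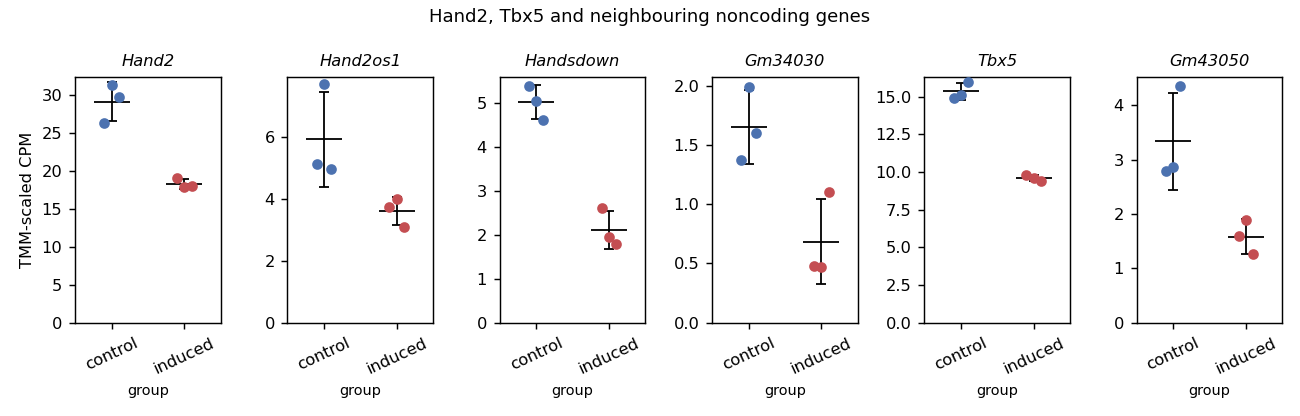
TMM-scaled CPM of Hand2, Tbx5 and neighbouring noncoding genes by library (blue control, red induced), with the mean and 1 SD (n = 3) and a separate linear axis for each gene. In all 6 panels the induced libraries lie below the control libraries, as for Handsdown at 5.01 against 2.11 CPM. Groups did not overlap, in either direction, for 68.6% of all genes tested.

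Neighbours of the members that rose were mixed. Neil2, a DNA repair gene 5066 bases from Gata4, had 6, 7 and 13 reads in control and 25, 27 and 18 in induced libraries, and its log2 fold change was 1.48 (SE 0.38, adjusted p = 0.00237). Lysmd4, whose exons overlap those of Mef2a, rose by 0.27 on the log2 scale (adjusted p = 0.0161), and Gm44667, which lies within Mef2a, rose by 1.78 from 14 to 47 reads (adjusted p = 0.00157). Both may hold reads of Mef2a. Neil2 and Gm44667 passed the filter on low counts only through their induced libraries. The antisense neighbour of Gata6, Gata6os (1010001N08Rik in the table), had 6.79 ± 0.72 CPM in control and 6.18 ± 0.34 in induced cells and did not follow the rise of Gata6 past the threshold (adjusted p = 0.396). 1700113A16Rik, which overlaps Mef2d, and 1700112J16Rik, near Mef2a, were counted too rarely for the fit.

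Most partners of the factors that passed the test were lower. Of 15 listed partners and coactivators 14 were tested, 1 was higher and 6 were lower (7 of 14 called, against 64.8% of all genes), with a median log2 fold change of -0.13. Srf, the MADS box partner of GATA4 on muscle promoters, had 77.4, 77.7 and 79.2 CPM in control and 50.8, 51.7 and 50.3 CPM in induced libraries, a log2 fold change of -0.62 (SE 0.05, adjusted p = 4.81e-09). Its actin-regulated coactivator Mrtfa (Mkl1 in the table) fell by 0.80, Tcf3, a dimer partner of HAND2, fell by 1.10, and Nfatc4, the calcineurin target that binds GATA4, fell by 0.92. These 3 values are log2 fold changes with adjusted p of 2.79e-10, 5.13e-12 and 4.71e-10. The tested gene that rose was Tead1, named after its value was seen, from 220 ± 2.72 to 348 ± 34.8 CPM. Myocd, the myocardin gene, had 4 reads in all control and 1 in all induced libraries.

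Of 12 listed corepressors 9 were tested, 1 was higher and 6 were lower (77.8% called, against 64.8% of all genes), with a median log2 fold change of -0.28. The 3 that were not tested, the Notch targets Hey1, Hey2 and Heyl, had 5 reads in all control and 57 in all induced libraries. The class IIa histone deacetylases, which hold MEF2 inactive, were split. Hdac5 had 271.9, 279.3 and 281.9 CPM in control and 225.7, 199.8 and 212.3 CPM in induced libraries, Hdac7 fell by 0.71 and Hdac9 by 1.36 on the log2 scale (adjusted p = 2.31e-06, 1.69e-10 and 8.2e-07 for the 3 genes). Hdac4, the 1 tested gene of the list that was higher and named after its value was seen, went from 34.2 ± 1.09 to 47.2 ± 3.21 CPM (adjusted p = 3.99e-06). Hopx, a homeodomain protein that blocks SRF, fell from 4.65 ± 0.76 to 1.51 ± 0.27 CPM (adjusted p = 2.84e-06). Mrtfa and Hdac7 lie on chromosome 15, where the median log2 fold change of 561 tested genes was -0.24, and the part of that shift in their values was not tested.

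Of 17 kinases and phosphatases upstream of MEF2 16 were tested, 4 were higher and 6 were lower, with a median log2 fold change of -0.08. The share called was 62.5%, close to the 64.8% of all genes. The calcineurin subunits Ppp3ca and Ppp3r1, which activate NFAT and MEF2, had log2 fold changes of 0.36 and 0.40 (adjusted p = 5.58e-06 and 2.97e-06). The catalytic subunit Ppp3cb, named after its value was seen, fell by 0.27 (adjusted p = 0.000254). Camk1, a kinase that phosphorylates the deacetylases, rose by 0.38 (adjusted p = 6.96e-06). Mapk7, which encodes the MEF2 kinase ERK5, fell by 0.38 (adjusted p = 3.99e-05).

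**Figure D5:**
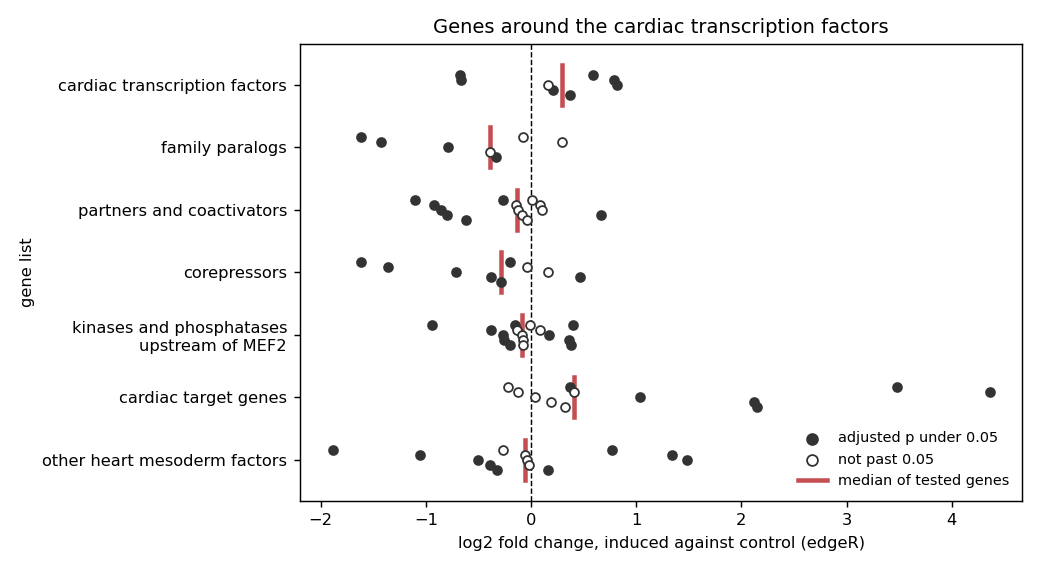
Log2 fold change (induced against control, edgeR) of each tested gene in the cardiac factor list and in the lists of paralogs, partners, corepressors, upstream enzymes, targets and other heart mesoderm factors, filled where the adjusted p was under 0.05, with a red line at the median of tested genes. Myl7, with 0 control reads, is left out of the plot. The medians are 0.29 for the cardiac factors, -0.39 for their paralogs and 0.41 for the target genes.

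Among genes that these factors are known to activate in heart muscle, 13 of 30 were tested, 7 were higher and 0 were lower, with a median log2 fold change of 0.41. The share called was 53.8%, against 64.8% of all genes, and Myl7, Des and Cox6a2 passed the filter only through their induced libraries. Gja1, the gene of connexin 43 and also abundant in fibroblasts, had 79.7, 76.4 and 74.2 CPM in control and 328.8, 351 and 324 CPM in induced libraries, a log2 fold change of 2.12 (SE 0.05, adjusted p = 2.3e-16). Tnnt2, cardiac troponin T, Des, the muscle intermediate filament desmin, and Cox6a2, a muscle subunit of cytochrome c oxidase, had log2 fold changes of 2.15, 4.36 and 3.48, all past the threshold. Myl7, the atrial myosin light chain, had 0 reads in control libraries and 34, 20 and 20 in induced ones, at least 25.8-fold higher against a limit of 3 reads over the control group. The 17 targets that were not tested had 51 reads in all control and 114 in all induced libraries. Myh6, the alpha myosin heavy chain, had 1 read in the 6 libraries, and Myl2, the ventricular myosin light chain, had 1, 1 and 0 reads in control and 0 in each induced library.

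Promoters of the target genes were searched for the sites of the factors on both strands of the same 250 bases. The 30 target windows covered 26 genes. AGATAA, the site of GATA proteins, was in 6 of 30 target windows and in 9.99% of all windows. The MEF2 site was in 2 target windows (6.67%) and 0.508% of all windows. AGGTGTGA, a site of T-box proteins, was in 2 target windows (6.67%) and 1.12% of all windows. CANNTG, bound by helix-loop-helix dimers such as HAND2 with TCF3, was in 86.7% of target windows and 66.2% of all windows. Of the windows of the cardiac factors themselves, that of Hand2 held AGATAA and none held the MEF2 site or AGGTGTGA. A match of letters is a description and not a bound site.

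Markers of the cell types that such a culture could hold were read beside these results. The 9 fibroblast markers summed to 26401 to 27726 CPM in control and 26758 to 28352 CPM in induced libraries. This sum was held mostly by collagen genes and Fn1. Of the 9 markers 6 were higher and 3 lower (100% called, against 64.8% of all genes). Within the sum Lum went from 6.47 ± 0.55 to 134 ± 8.64 CPM and Postn from 1.96 ± 0.38 to 25.7 ± 2.39 CPM. Among the 3 lower markers was the abundant Col1a1. It had 150081, 142580 and 148677 reads in control and 113886, 110605 and 104702 in induced libraries. The 8 epicardial markers summed to 523 to 534 CPM in control and 1995 to 2177 CPM in induced libraries. Of them 5 were higher and 3 lower (100% called, against 64.8% of all genes). Most of this sum was Upk3b (mean of 254 CPM in control and 942 in induced cells), Upk1b (117 and 766) and Msln (28.1 and 226). The lower markers were Tbx18 (63.7 and 50.7), Krt19 (30.3 and 12.8) and Aldh1a2 (2.12 and 0.369). Aldh1a2 passed the filter on low counts only through its control libraries. The 10 cardiomyocyte markers went from 13.2 to 16.2 CPM up to 60.6 to 63.9 CPM, nearly all of it Tnnt2 at 13.1 and 58.2 CPM, with 3 of them tested and Myh6, Myl2 and Nppa at 0 to 3 reads per library. Of 8 smooth muscle markers 7 were tested, 4 were higher and 2 were lower (85.7% called, against 64.8% of all genes). The smooth muscle list summed to 1210 to 1261 CPM in control and 1067 to 1115 CPM in induced libraries. Of 8 endothelial markers Egfl7 alone was tested, and the list summed to 8.57 to 9.53 CPM against 11.6 to 12.1 CPM, with Tie1 and Cldn5 at 0 reads. Of 8 leukocyte markers 5 had 0 reads, Ptprc among them, and 2 were tested. Of these 1 was higher and 1 lower (100% called, against 64.8% of all genes). The list went from 22.0 to 23.9 CPM down to 13.6 to 15.3 CPM through Csf1r, at 22.6 and 10.9 CPM. Fcer1g had 2 reads in all control and 187 in all induced libraries, and passed the filter on low counts only through its induced libraries. The part of the epicardial, cardiomyocyte and other marker shifts in the changes of the 7 factors was not tested.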

How the data were processed

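The authors deposited 1 table of unnormalized whole-number read counts for every gene, with FPKM values beside them. The submitters' processing notes name HISAT2 2.0.5, featureCounts 1.5.0-p3, DESeq2 1.16.1 and mm10. The annotation and strand setting are not given in the sources used here. Columns with the authors' fold changes and p-values, and their Gene Ontology tables, were not used. Counts were filtered by filterByExpr (minimum count 10, total 15), which kept 99.9% of reads, scaled by TMM and tested with the quasi-likelihood test of edgeR 4.0.16 (R 4.3.3, prior count 0.125) at an adjusted p of 0.05, over 14246 genes. The biological coefficient of variation was 5.82%. Library pairs of a group differed beyond sampling noise (chi-square divided by its degrees of freedom, 2.56 to 8.91), and 6 replicates were kept. Shares and ratios used the deposited FPKM and the two-sided exact permutation test.

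The 10 members and all lists were chosen with earlier results of these data known. Named genes were the members, up to 4 tested genes per list with the smallest p, paralogs with at least 1 CPM, and genes within 10 kb of a member with at least 10 reads. Other genes are said to be named after their values were seen, or serve as marker or target examples chosen in that way. Alternatives were median-ratio factors, library totals, DESeq2 1.42.0, limma 3.58.1 on log2(FPKM + 1) and log2(FPKM + 0.1), no filter, a stricter filter (mean count 10, 1 CPM in 3 libraries), a stricter threshold of 0.01, the replicate number as a block, and fits without 1 of the libraries. Coordinates are those of the table. The test was run on simulated counts in which few genes changed, up and down in equal number. That run does not cover data in which most genes are called, as they were here.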

Additional observations from a re-analysis of the deposited data

How the results depend on the processing

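The 7 changed factors (5 higher, 2 lower) were called in the same direction under all 15 alternatives, and Mef2c passed in none (adjusted p 0.149 to 0.775). Over these settings the log2 fold change of Tbx20 ran from 0.44 to 0.93 and that of Tbx5 from -0.71 to -0.48. At an adjusted p of 0.01, 7783 of 14246 tested genes were called (54.6%). DESeq2 called 8471 of 18671 (45.4%), and the fit without a filter called 9765 of 25705 (38.0%). The stricter filter gave the highest share of these alternatives, 67.2%. Library totals alone moved the share of higher calls among all calls from 50.3% to 46.5%. With the replicate block, 9063 genes (63.6% of those tested) and 7 factors were called. Deviations of libraries with the same number correlated at -0.03, -0.03 and 0.03, so the numbers do not pair the libraries. List medians depended on which sparse genes entered. With DESeq2 and without a filter, the median of corepressors was -0.11 and -0.11, and that of cardiac targets 1.00 and 0.99. The median of skeletal muscle determination factors was 3.51 and 4.12. The unfiltered fit called 2 of these genes, where 38.0% of all genes were called. Of the 6 genes in this list 5 had 0 reads in all control libraries. Their fold changes have no control level to rest on, so these 2 medians are not sizes of change. The stricter filter gave 1.04 for cardiac targets. Leaving out 1 library gave medians of 0.39 to 0.64 for cardiac targets (0.64 without control replicate 2), -0.21 to -0.090 for partners and -0.14 to -0.051 for upstream enzymes (the lower ends without induced replicate 2, the upper ends without induced replicate 3). For other heart mesoderm factors it gave -0.17 to -0.033, with -0.17, -0.16 and -0.11 without induced replicate 1, induced replicate 2 and control replicate 3, and -0.033 without induced replicate 3. Depth limits what can be said of Nkx2-5, Isl1 and the targets with a few reads.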

Other observations

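Some other transcription factors of heart mesoderm had larger changes than any of the 10 cardiac factors. Of 16 listed genes 13 were tested, 4 were higher and 5 were lower (69.2% called, against 64.8% of all genes), with a median log2 fold change of -0.06 (-0.17 without induced replicate 1). Prrx1, a homeobox gene of limb, fibroblast and stromal mesenchyme, had 489, 483.7 and 485.1 CPM in control and 125.4, 139.6 and 128.9 CPM in induced libraries, a log2 fold change of -1.89 (SE 0.05, edgeR adjusted p = 5.57e-16). Meis1, a homeobox cofactor that restrains cardiomyocyte division, fell by 1.06 on the log2 scale (adjusted p = 1.03e-10), while its paralog Meis2, named after its value was seen, rose by 0.77 (adjusted p = 7.74e-08). The epicardial factors Tcf21 and Wt1 were higher, with log2 fold changes of 1.49 and 1.34.

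By the DNA-binding families annotated in the deposited table, 51 of 66 tested homeobox genes were called, 16 higher and 35 lower. That is 77.3%, against 64.8% of all genes, and their median log2 fold change was -0.25. Of 51 tested bHLH genes 36 were called (70.6%, against 64.8% of all genes), 21 higher and 15 lower, with a median of 0.09. Of 11 tested zinc finger genes of the GATA type 7 were called (63.6%, against 64.8% of all genes). Among them 2 were higher, Gata4 and Gata6, and 5 were lower. Of 9 tested T-box genes 4 were called (44.4%, against 64.8% of all genes). Tbx20 was higher and 3 were lower, Tbx5, Tbx18 and Tbx3.

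The factors that set skeletal muscle fate had 0 control reads where they were not tested, and their induced reads were unevenly spread. Myod1 had 1, 14 and 1 reads and Myog had 3, 19 and 0 reads in the 3 induced libraries. Pax7 had 6 reads and Actn2 8 reads in induced library 2 and 0 elsewhere. These genes were singled out after their values were seen. Pax3 was the 1 gene of this list that was tested (log2 fold change 0.19, adjusted p = 0.0566).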
